A study of Mus musculus with 2 samples.

Results

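Bone morphogenetic protein (BMP) signalling and ID genes were described in CD45-negative cells sorted from mouse mammary tumours. Members were the rows of the deposited expression table whose gene name was Bmp4, Grem1, Bmpr1a, Bmpr2, Smad1, Smad5, Smad6, Id1, Id2 or Id3. All 10 were present, of 12707 listed genes. Py8119 cells, a mesenchymal-type mammary tumour line from the MMTV-PyMT model, were injected into hosts that lacked Mtdh (metadherin) or carried it. The library called KO host here came from hosts labelled Mtdh knock out (KO), and the library called WT host from hosts labelled Mtdh wild type (WT). The injected cells were labelled wild type for Mtdh in both. The number of mice and tumours behind a library, and the strain, sex and age of the hosts, are not stated in the labels. With 1 library per group, nothing below could be checked against replicates, and the values describe this pair of libraries.

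In BMP signalling, a secreted ligand such as BMP4 brings together a type I receptor (BMPR1A) and a type II receptor (BMPR2), and the type I receptor then phosphorylates SMAD1 and SMAD5. These receptor SMADs enter the nucleus with SMAD4 and switch on targets that include the ID genes and Smad6, whose product inhibits the pathway in turn. Gremlin 1, the product of Grem1, binds BMP4 outside the cell and keeps it from its receptors. ID proteins carry a helix-loop-helix domain without the basic region that contacts DNA, and they hold E proteins in dimers that cannot bind DNA.

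Levels are given as RPM, the reads recovered from the deposited values, scaled to 1000000 reads in each library. The KO host library held 23381854 recovered reads and the WT host library 26069383. Folds are ratios of RPM, KO host over WT host, with exact conditional binomial (Clopper-Pearson) 95% intervals that cover counting error only. Genes were called higher or lower where this ratio reached 2-fold, among the 10652 genes with at least 100 reads over both libraries and a value above 0 in each. Across those genes, 8.40% were higher and 11.3% lower in the KO host library, with a median log2 ratio of -0.063. These shares depended on depth: 29.7% of genes with 100 to 300 reads were lower, 19.9% with 300 to 1000, 7.26% with 1000 to 3000, and 0.704% with 10000 or more. For higher genes the shares in the same read ranges were 25.8%, 12.9%, 4.05% and 1.93%. Mtdh itself was at 989.3 RPM in the KO host library and 1088 RPM in the WT host library (0.909-fold, interval 0.893 to 0.925), with the gene intact in the tumour cells of both.

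Bmp4 was lower in the KO host library, by the widest margin of the members with a ratio, and Smad6 was listed at 0 there. All 10 members had at least 100 reads and 9 had a ratio. Of these 9, 0 were higher, 1 was lower and 8 lay between, beside the 8.40% and 11.3% of all genes. Values below 0 on the log2 scale were found for 7 of the 9, against 54.4% of all genes, and the members' median log2 ratio was -0.26, beside -0.063 for all genes. The members were chosen with earlier results of these data known, so these values are a description only. Id1 and Id2 were at 0.627-fold and 0.559-fold, Id3 at 1.03-fold, Bmpr1a at 0.837-fold and Bmpr2 at 0.913-fold. Smad5 was on the other side of the group at 1.25-fold.

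**Figure D1:**
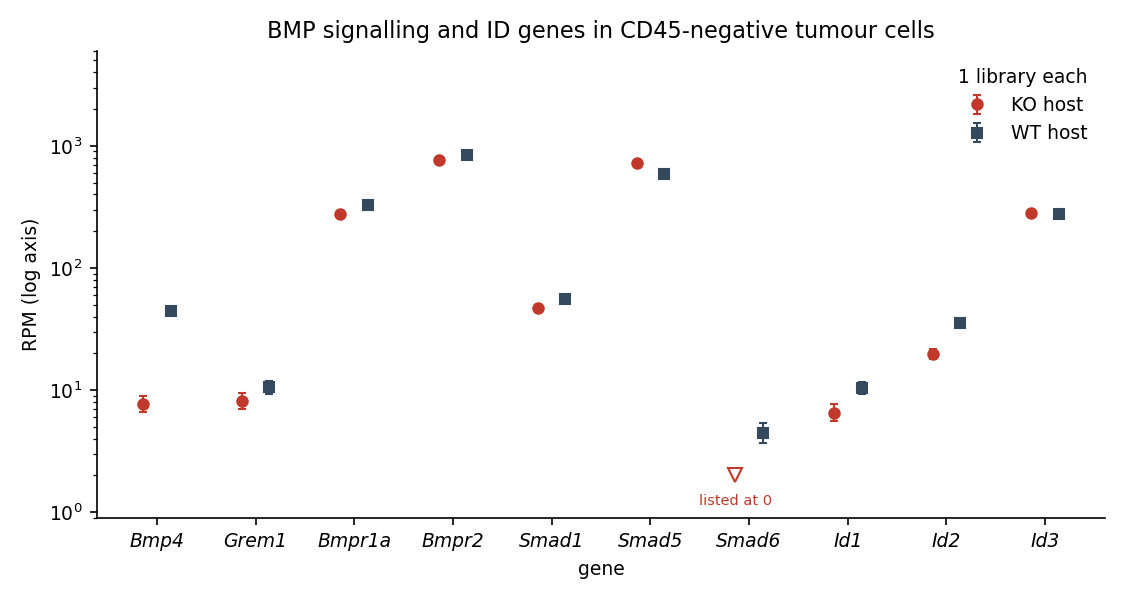
RPM (log axis) of the 10 genes in the KO host library (circles) and the WT host library (squares), with 95% Poisson counting intervals and 1 library per group. Bmp4 stands at 7.70 RPM in the KO host library and 44.7 RPM in the WT host library, Id3 at 282 RPM in the KO host library and 274 RPM in the WT host library, and the open triangle marks Smad6, listed at 0 in the KO host library and drawn at an arbitrary height.

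The upstream sequences of 3 genes are shown because their ratios differed: Bmp4 was lower past 2-fold, Id2 was at 0.559-fold, and Id3, of the same family as Id2, was at 1.03-fold. They are RefSeq sequences of build GRCm38.p6, which is not the build of the expression table, and cover the 250 bases before the annotated start of each gene, 5′ to 3′ on the strand of the gene. Capitals mark GGCGCC, a palindrome known as a binding element of SMAD1 and SMAD5, and GTCT or its complement AGAC, the short SMAD4 element.
Bmp4 (chr14:46390670-46390919, minus strand): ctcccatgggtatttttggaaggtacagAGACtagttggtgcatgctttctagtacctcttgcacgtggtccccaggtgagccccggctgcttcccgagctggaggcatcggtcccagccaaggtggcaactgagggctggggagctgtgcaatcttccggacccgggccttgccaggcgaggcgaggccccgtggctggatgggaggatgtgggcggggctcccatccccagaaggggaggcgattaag
Id2 (chr12:25096093-25096342, minus strand): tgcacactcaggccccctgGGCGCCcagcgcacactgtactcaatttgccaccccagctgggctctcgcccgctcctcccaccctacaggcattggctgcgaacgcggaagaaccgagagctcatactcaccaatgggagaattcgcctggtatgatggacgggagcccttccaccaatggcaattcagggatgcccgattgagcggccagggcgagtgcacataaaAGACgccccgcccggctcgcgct
Id3 (chr4:136143572-136143821, plus strand): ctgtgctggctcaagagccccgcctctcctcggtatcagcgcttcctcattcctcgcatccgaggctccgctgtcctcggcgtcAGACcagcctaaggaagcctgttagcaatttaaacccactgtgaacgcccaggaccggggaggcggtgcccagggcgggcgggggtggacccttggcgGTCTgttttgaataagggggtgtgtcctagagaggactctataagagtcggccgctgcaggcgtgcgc

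In Bmp4, AGAC began 222 bases before the start, and GGCGCC was not found in the window. In Id2, GGCGCC began 231 bases before the start and AGAC 23 bases before it. In Id3, AGAC began 166 bases and GTCT 68 bases before the start, and GGCGCC was not found. Of the 10 members, 9 had at least 1 window in the promoter table, and Id1 is named only. GGCGCC was in a window of 5 of the 9 members and in 9.59% of the 32851 windows of the same length in the table. GTCT, read on both strands, was in a window of 6 of the 9 and in 82.9% of all windows. Smad5 had 3 windows and so more chances of a match than the others. GGCGCC reads the same on both strands and shares no letters with a GTCT match in the windows shown. These matches describe letters and not bound sites.

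Bmp4 encodes a secreted ligand and lies on chromosome 14 (46620977 to 46628126, minus strand, build mm39, as for all gene positions below; ENSMUSG00000021835). It had 180 reads in the KO host library and 1166 in the WT host library, or 7.70 RPM and 44.7 RPM. The ratio was 5.81-fold lower in the KO host library (interval 4.96 to 6.84). Among the 2989 genes with 1000 to 3000 reads, 0.201% had a log2 ratio as low as the -2.54 of Bmp4, so few genes of its depth lay as far down. On the scale of the deposited log2(FPKM + 1) values, Bmp4 was at 1.05 in the KO host library and 2.86 in the WT host library, a difference of -1.80. By that measure 2.64% of the 6057 genes with a mean of 1 or more were lower by 1 or more. Gm15217 and Gm15222, on the opposite strand, overlap Bmp4 in GENCODE M21, and strand handling is not stated, so their reads cannot be told apart from those of Bmp4.

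Grem1 encodes gremlin 1, the extracellular BMP antagonist (ENSMUSG00000074934, chromosome 2, 113576509 to 113588991, minus strand). It had 191 reads in the KO host library and 274 in the WT host library, 8.17 RPM and 10.5 RPM. The ratio was 0.777-fold (interval 0.643 to 0.938), and 41.3% of genes with 300 to 1000 reads were at or below it, which places Grem1 near the middle of its depth. Per kilobase of annotated exon, the RPM of Bmp4 was 1.74 times that of Grem1 in the KO host library and 7.85 times in the WT host library. The Bmp4 transcript thus exceeded the Grem1 transcript by less in the KO host library. This ratio leaves out the other BMP antagonists, and protein was not measured.

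Both receptors were well covered and close to parity. Bmpr1a, the type I receptor (ENSMUSG00000021796, chromosome 14, 34132691 to 34225298, minus strand), had 6419 reads in the KO host library and 8551 in the WT host library. Its ratio was 0.837-fold (interval 0.810 to 0.865), and 15.4% of genes with 10000 or more reads were as low or lower. Bmpr2, the type II receptor (ENSMUSG00000067336, chromosome 1, 59802559 to 59918173, plus strand), had 17844 reads in the KO host library and 21800 in the WT host library, 0.913-fold (interval 0.895 to 0.931), with 31.0% as low or lower. The counting intervals of both exclude 1, but a good share of equally covered genes differed by as much between the libraries. Per kilobase of exon the RPM was 43.2 for Bmpr1a and 42.4 for Bmpr2 in the KO host library, and 51.6 for Bmpr1a and 46.5 for Bmpr2 in the WT host library. In the deposited FPKM, per kilobase of genomic span, Bmpr2 was the higher of the pair, at 6.60 against 2.96 for Bmpr1a in the KO host library and 7.23 against 3.54 in the WT host library, so their order depends on the length used. Whether the recovered reads include introns is not stated, so neither length is known to be the right one. Gm17110, on the opposite strand, overlaps Bmpr1a, and Gm38125, on the same strand, overlaps Bmpr2.

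The receptor SMADs lay on opposite sides of parity. Smad1 (ENSMUSG00000031681, chromosome 8, 80065024 to 80126147, minus strand) had 1103 reads in the KO host library and 1464 in the WT host library, 0.840-fold (interval 0.776 to 0.909). Smad5 (ENSMUSG00000021540, chromosome 13, 56850823 to 56890190, plus strand) had 17011 reads in the KO host library and 15198 in the WT host library, 1.25-fold (interval 1.22 to 1.28). Neither reached 2-fold: 38.9% of genes with 1000 to 3000 reads were as low as Smad1, and 13.7% of genes with 10000 or more reads were as high as Smad5. Per kilobase of exon, the RPM of Smad5 exceeded that of Smad1 by 13.0 times in the KO host library and 8.76 times in the WT host library. Smad5 was thus the main receptor SMAD transcript of this pair in both libraries. The recovered reads of Smad5 in both libraries, and of Bmpr1a in the KO host library, were not whole numbers within 0.1 read, and how the authors counted such reads is not stated. Gm27301, Gm27834 and Gm27271, on the same strand, overlap Smad5.

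Smad6, the inhibitory SMAD (ENSMUSG00000036867, chromosome 9, 63860358 to 63929341, minus strand), was listed at 0 in the KO host library and had 117 reads in the WT host library, 4.49 RPM. Whether a value of 0 in the deposited values is a count of 0 reads or a missing estimate is not stated, so no ratio is given. Of all genes with 100 or more reads over both libraries, 0.841% were listed at 0 in the KO host library. Of those with 100 to 300 reads, 5.31% were listed at 0 in the KO host library and 3.93% in the WT host library. Its span of 69.0 kb put the WT host value at 0.09 on the deposited log2(FPKM + 1) scale.

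The ID genes differed in their ratios. Id1 (ENSMUSG00000042745, chromosome 2, 152578171 to 152579330, plus strand) had 153 reads in the KO host library and 272 in the WT host library, 6.54 RPM and 10.4 RPM, 0.627-fold (interval 0.511 to 0.767). Id2 (ENSMUSG00000020644, chromosome 12, 25143798 to 25147139, minus strand) had 462 reads in the KO host library and 921 in the WT host library, 19.8 RPM and 35.3 RPM, 0.559-fold (interval 0.499 to 0.626). Neither reached 2-fold, and at 1.5-fold both were counted as lower. At 1.5-fold 3 members with a ratio were lower and 0 were higher, beside 20.8% and 15.7% of all genes. Of genes with 300 to 1000 reads, 29.2% were as low as Id1, and of genes with 1000 to 3000 reads, 11.1% were as low as Id2. Id3 (ENSMUSG00000007872, chromosome 4, 135870808 to 135873066, plus strand) had 6601 reads in the KO host library and 7153 in the WT host library, 282 RPM and 274 RPM, 1.03-fold, and its interval of 0.995 to 1.06 includes 1. Per kilobase of exon, the RPM of Id3 was 27.9 times that of Id1 and 19.4 times that of Id2 in the KO host library, against 17.0 and 10.6 times in the WT host library. Id3 therefore made up most of the ID transcript in both libraries, and the ID genes that were below parity were the scarce ones.

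Ordered by RPM per kilobase of exon, the levels in the KO host library ran from Id3 (157.6) and Smad5 (98.1) through Bmpr1a and Bmpr2 to Id2 (8.10), Smad1 (7.53), Id1 (5.64), Bmp4 (3.42) and Grem1 (1.97). In the WT host library the order was Id3 (153.2), Smad5 (78.6), Bmpr1a, Bmpr2, Bmp4 (19.9), Id2 (14.5), Id1 (8.99), Smad1 (8.97), Grem1 (2.53) and Smad6 (1.40). On this scale the first 4 places were the same, and Bmp4 stood just after them in the WT host library and behind Id2, Smad1 and Id1 in the KO host library. In the deposited FPKM, per kilobase of genomic span, the first 4 were Id3 (125.0), Smad5 (18.5), Bmpr2 (6.60) and Id2 (5.91) in the KO host library, and Id3 (121), Smad5 (14.8), Id2 (10.6) and Id1 (8.99) in the WT host library. On that scale too Bmp4 stood higher in the order of the WT host library, at 6.26, between Bmpr2 and Bmpr1a, than in that of the KO host library, at 1.08, between Bmpr1a and Smad1. Without replicates there is no spread to separate neighbours in these orders, and Id1 and Smad1 in the WT host library were nearly equal.

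**Figure D2:**
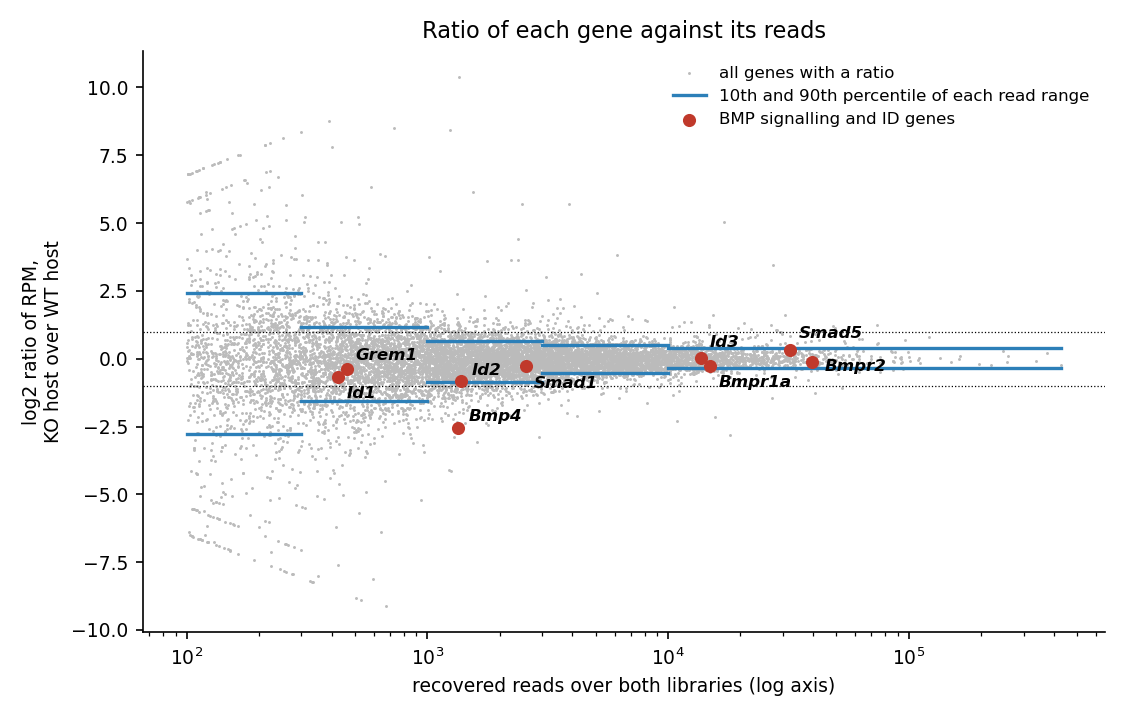
Log2 ratio of RPM, KO host over WT host, against the reads over both libraries (log axis) for all 10652 genes with a ratio (grey) and the 9 members with one (red). Blue lines give the 10th and 90th percentile of each read range and dotted lines 2-fold. Bmp4, at -2.54, lies far below the 10th percentile of genes with 1000 to 3000 reads (-0.87), while Id1, at -0.67, lies inside the range of its depth.

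The rest of the pathway was described with 63 genes from general knowledge, of which 38 were listed and 31 had a ratio. Of the 31, 2 were higher and 3 were lower by 2-fold, and 26 lay between, with a median log2 ratio of -0.051. These are 6.45% and 9.68%, near the 8.40% and 11.3% of all genes. All 5 had under 1000 reads, the depth at which such ratios were common. The same shares of all genes stand beside the counts of each role list below.

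Among the other ligands only Bmp2 had 100 reads or more. It was higher, with 176 reads in the KO host library and 85 in the WT host library, 2.31-fold (interval 1.77 to 3.03). Per kilobase of exon, the RPM of Bmp4 was 1.62 times that of Bmp2 in the KO host library and 21.7 times in the WT host library. These ligand transcripts were thus closer to each other in the KO host library. Bmp8a, named after its value was seen, was listed at 0 in the KO host library and had 87 reads in the WT host library.

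Of the 6 other receptors and co-receptors with a ratio, 0 were higher and 2 were lower. Both lower genes had 100 to 300 reads, a range in which 29.7% of all genes were lower. Acvr2b, a type II receptor for activins and some BMPs, had 53 reads in the KO host library and 161 in the WT host library, 0.367-fold (interval 0.264 to 0.504). Eng, which encodes the co-receptor endoglin and is also an endothelial marker, had 18 reads in the KO host library and 98 in the WT host library. The co-receptor Rgmb, with the most reads of this list, was at 3106 reads in the KO host library and 4164 in the WT host library, 0.832-fold.

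None of the 8 SMADs and SMAD regulators with a ratio reached 2-fold, and their log2 ratios ran from -0.23 to 0.82. Skil, a repressor of SMAD-driven transcription with the most reads of the list, had 19754 reads in the KO host library and 12477 in the WT host library, 1.77-fold (interval 1.73 to 1.81). It was the highest ratio in this list, and 4 of the 8 were above 0.

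Of the 7 antagonists and extracellular modulators with a ratio, 1 was higher and 0 were lower. Bmper, a secreted regulator of BMP availability, had 281 reads in the KO host library and 113 in the WT host library, 2.77-fold (interval 2.22 to 3.48). Twsg1, a BMP-binding protein with the most reads of the list, was at 6325 reads in the KO host library and 7255 in the WT host library, 0.972-fold. The members of this list did not share a direction, with 4 above 0 and 3 below.

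Of the 6 other target genes with a ratio, 0 were higher and 1 was lower. That 1, Gata2, a transcription factor, had 2 reads in the KO host library and 107 in the WT host library, 0.0208-fold (interval 0.00249 to 0.0771). Zeb2, a repressor of epithelial genes with the most reads of the list, was at 5318 reads in the KO host library and 6121 in the WT host library, 0.969-fold. Id4, the remaining ID gene, named after its value was seen, had 47 reads in the KO host library and 101 in the WT host library, 0.519-fold (interval 0.359 to 0.740).

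The E proteins that ID proteins bind were all slightly below parity, with 0 of 3 past 2-fold. Tcf4, with the most reads, had 10736 reads in the KO host library and 15052 in the WT host library, 0.795-fold, and the log2 ratios of the 3 ran from -0.33 to -0.26.

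**Figure D3:**
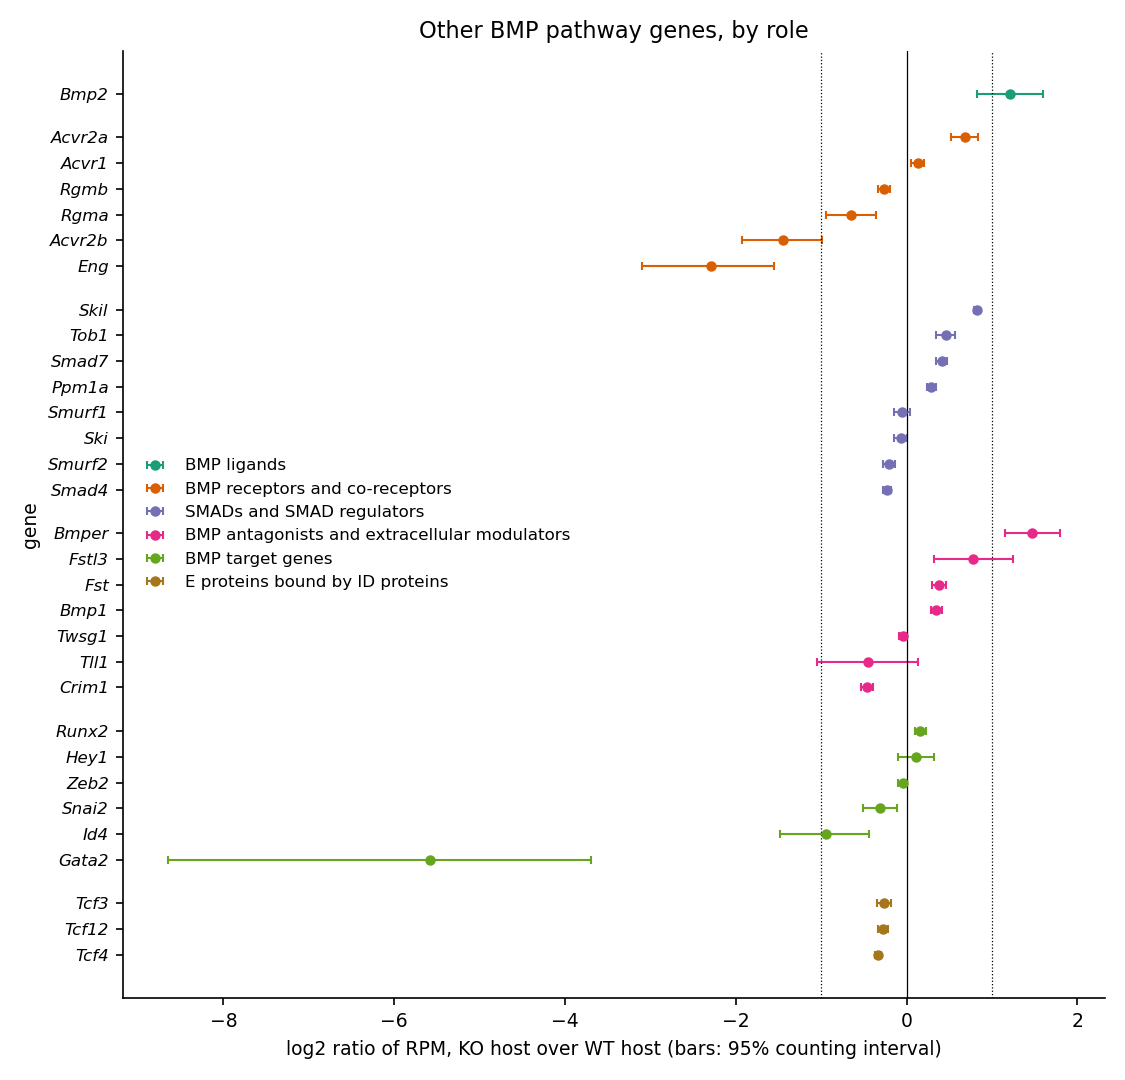
Log2 ratio of RPM, KO host over WT host, for the 31 other pathway genes with a ratio, grouped by role from top to bottom. Bars are 95% counting intervals and dotted lines mark 2-fold. Bmp2 and Bmper lie above 1, Acvr2b, Eng and Gata2 lie below -1, and the SMADs and their regulators lie between -0.23 and 0.82.

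Genes used as markers of other cell types also differed between the libraries, and pericytes, fibroblasts and endothelial cells would pass the CD45-negative gate. Whether the mesenchymal-type tumour cells themselves expressed these genes was not tested. In bulk RNA, fewer cells of a type and less RNA per cell cannot be told apart. All marker counts below stand beside 8.40% of all genes higher and 11.3% lower. Among genes with 100 to 300 reads these shares were 25.8% and 29.7%, and with 300 to 1000 reads 12.9% and 19.9%. Of 10 pericyte and smooth muscle markers, 6 were listed, summing to 94.4 RPM in the KO host library and 428 RPM in the WT host library. Of the 4 with a ratio, 0 were higher and 3 were lower, with a median log2 ratio of -1.75. Pdgfrb, a pericyte receptor, had 1691 reads in the KO host library and 9206 in the WT host library. It alone gave 72.3 of the 94.4 RPM in the KO host library and 353 of the 428 RPM in the WT host library. Notch3 was at 0.221-fold, and Tagln, named after its value was seen, was near parity at 0.981-fold. Cspg4, another pericyte marker, was listed at 0 in the KO host library and had 190 reads in the WT host library.

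Fibroblast markers summed to 1071 RPM in the KO host library and 1365 RPM in the WT host library. Of 10 markers 7 were listed, and of the 6 with a ratio 0 were higher, 2 were lower and all 6 were below 0, with a median log2 ratio of -0.54. The sums were carried by Ogn, Gsn and Pdgfra, named with the next pair after their values were seen, at 0.825-fold, 0.711-fold and 0.966-fold. Dcn, a matrix proteoglycan, had 158 reads in the KO host library and 784 in the WT host library, and Dpt, another matrix protein, had 44 reads in the KO host library and 322 in the WT host library. Endothelial markers summed to 17.5 RPM in the KO host library and 27.7 RPM in the WT host library. Of the 5 listed of 12, 1 was higher and 3 were lower, with a median log2 ratio of -1.14, and the sums were low in both libraries. Pecam1, named after its value was seen, was near parity at 1.11-fold (interval 0.859 to 1.42). The higher marker, Cdh5, named after its value was seen, had 146 reads in the KO host library and 1 in the WT host library, and it alone gave 6.24 of the 17.5 RPM in the KO host library. The part of pericyte, fibroblast and endothelial RNA in the values of Bmp4, Id1, Id2 and Smad6 was not tested.

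Epithelial markers went the other way, with 333 RPM in the KO host library and 206 RPM in the WT host library. Of the 6 with a ratio, of 8 named, 3 were higher and 0 were lower. Cldn4, a tight junction protein, had 783 reads in the KO host library and 251 in the WT host library. Macrophages and other leukocytes carry CD45, and the gate is meant to remove them. Macrophage markers summed to 213 RPM in the KO host library and 171 RPM in the WT host library, with 2 of 6 higher and 0 lower. Of these 6, 5 were above 0 on the log2 scale and 1 was below. Lyz2, at 148 RPM in the KO host library and 134 RPM in the WT host library, gave most of both sums. Mrc1, named with Lyz2 after their values were seen, was the 1 below 0, at 0.512-fold. Mpeg1, a pore-forming protein of macrophages, had 952 reads in the KO host library and 378 in the WT host library. Leukocyte markers summed to 14.7 RPM in the KO host library and 11.4 RPM in the WT host library, with 1 of 4 higher and 0 lower and low sums in both libraries.

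Genes known to respond to tissue dissociation summed to 7851 RPM in the KO host library and 7398 RPM in the WT host library. Of the 11 with a ratio, of 12 named, 0 were higher and 1 was lower, with a median log2 ratio of -0.063, the same after rounding as that of all genes. The gene that was lower was Hspa1b, a heat shock protein, with 1875 reads in the KO host library and 4791 in the WT host library.

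**Figure D4:**
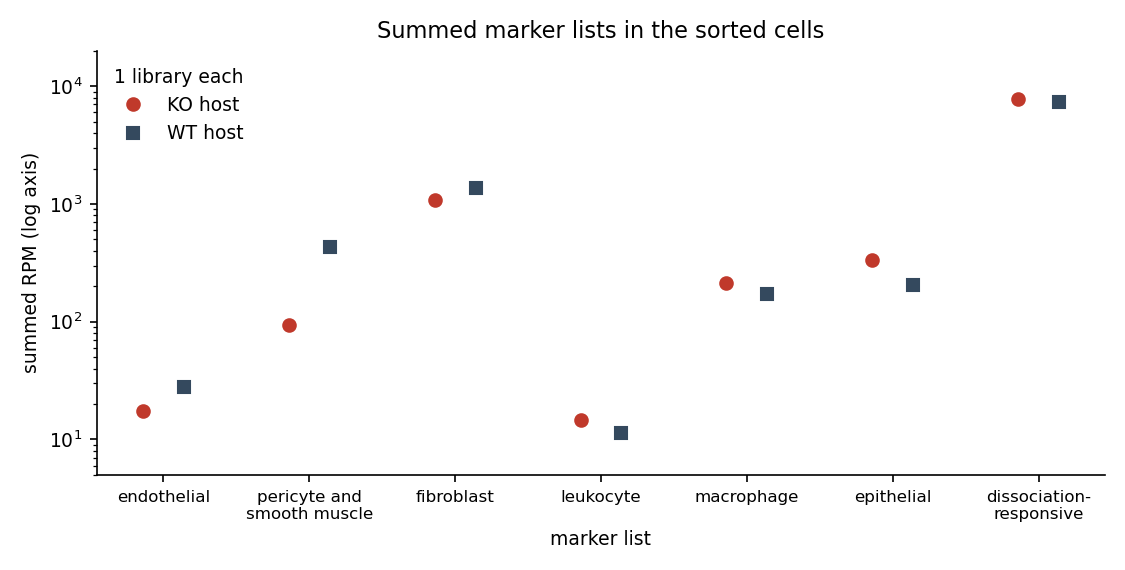
Summed RPM (log axis) of the listed genes of each marker list in the KO host library (circles) and the WT host library (squares), with 1 library per group. The pericyte and smooth muscle sum is 94.4 RPM in the KO host library and 428 RPM in the WT host library, while the dissociation-responsive sum is 7851 RPM in the KO host library and 7398 RPM in the WT host library. Pdgfrb gives most of the pericyte and smooth muscle sum in both libraries.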

How the data were processed

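RNA from live CD45-negative cells of dissociated Py8119 tumours was sequenced after removal of ribosomal RNA, per the labels' protocols. The submitters' processing notes name STAR 2.7.8a, Partek and build mm39; how reads were counted, the annotation release, strand handling and filters are not stated. The authors deposited 1 table of log2 values, log2(FPKM + 1), with 12707 genes and 1 column per library. Its length column equals the genomic span in 100% of rows, so FPKM is per kilobase of span, and the added 1 hides differences of long or low genes. Reads were therefore recovered from the steps of FPKM times span: 83.4% (KO host) and 84.8% (WT host) of values under 1000 reads were whole within 0.1 read. A value of 0 was given for 413 genes in the KO host library and 511 in the WT host library. Genes missing from the table were not analysed here.

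Exon lengths are unions of GENCODE M21 exons, used for length only. If the recovered reads include introns, which is not stated, levels per kilobase of exon are raised for genes with long introns. With 1 library per group no test was run. Folds were computed with Python 3.11.15 and scipy 1.17.1, after a test on simulated data. Alternatives changed the scaling, the added constant, the read minimum, the fold and the use of fractional reads. Genes named were all members, Mtdh, pathway genes past 2-fold with 100 or more reads, the gene with the most reads of each pathway list, and markers listed at 0, or past 2-fold with 1000 or more reads. Exceptions, named after their values were seen, were Bmp8a, Chrd, Chrdl1, Fstl1, Id4, Kcp, Cdh5, Dcn, Dpt, Gsn, Lyz2, Mrc1, Ogn, Pdgfra, Pecam1 and Tagln. The members and lists were chosen with earlier results of these data known.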

Additional observations from a re-analysis of the deposited data

How the results depend on the processing

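The sign of the log2 ratio was kept in all 66 recomputed member values, over 9 members and the alternatives that applied to each, and 49 of the 66 stayed inside the counting interval. Only TMM scaling and centring on all genes could change a sign. The other settings kept the same ratio or added a constant to both FPKM values. The 49 include settings that returned the main ratio unchanged. Of the members, 1 was lower at 2-fold, 3 at 1.5-fold and 0 with 5 added to FPKM, which shrinks low genes by construction; 0 were higher under every alternative. The members' median log2 ratio of -0.26 became -0.20 with TMM scaling, -0.19 when centred on all genes and -0.077 with 5 added. It was -0.20 as a deposited log2 difference and -0.36 with whole reads only, each over the 7 members that the setting kept. Of the 31 pathway genes with a ratio, 2 were higher and 3 lower. These counts were 0 and 1 with 0.1 added, 0 and 0 with 5 added, and 5 and 5 at 1.5-fold. They were 0 and 0 as deposited log2 differences, where 16 genes were kept. With at least 1000 reads they were 0 and 0 over 20 genes, a minimum that removed every gene past 2-fold. The cause of these shifts was not tested beyond what each setting does by construction. No paired analysis was possible because each group has 1 library, and no library could be left out. Depth limits Id1, Grem1 and Smad6, whose reads over both libraries were under 1000.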
